A study of Mus musculus with 20 samples.

Results

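The comparison described here sets the lungs of 5 mouse dams given a medium total dose of carbon black against those of 5 dams given only the vehicle, which together are 10 of the 20 arrays of the study. The members were chosen by the labelled dose group alone. All dams were time-mated, nulliparous young adult females of the strain C57BL/6BomTac. Carbon black of the type Printex 90, an industrial soot made of very fine carbon particles, or Milli-Q water alone was instilled into the windpipe 4 times during pregnancy, on day 7, day 10, day 15 and day 18 of gestation. The medium group received 13.5 µg each time, 54 µg in total, and the control group received the same 4 instillations of water. Groups given 11 µg (low) and 268 µg (high) in total, 5 dams each, are used below only where they show how the medium group differs. Lungs were collected 26 to 27 days after exposure, a span that takes in the end of pregnancy and lactation in control and exposed dams alike. Each array held the RNA of 1 dam, labelled with Cy5, against a pooled mouse reference RNA labelled with Cy3, with no dye swap. A value below is the log2 ratio of lung to reference signal, and a difference is the medium mean minus the control mean on that log2 scale.

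Inhaled or instilled particles are taken up by alveolar macrophages, which with the epithelium release chemokines that bring neutrophils and monocytes into the airspaces. Acute phase proteins made in the lung, such as the serum amyloid A proteins, are a further part of this response. Dendritic cells of several kinds sample the airways, among them plasmacytoid dendritic cells, which are known for making type I interferon when they sense nucleic acids. Natural killer cells, which kill stressed or infected cells, are common among the lymphocytes of the mouse lung.

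Of the probes, 69.1% ± 4.76 (SD, n = 5) were well above background in the medium arrays and 71.5% ± 3.8 (SD, n = 5) in the controls, a difference of -2.39 points that did not pass an exact two-sided permutation test (p = 0.405). Medium dams 49 and 50 were hybridised on a slide of their own, slide 6, which was read with another software version and had the lowest shares, 63.3% and 65.0%. Without them the medium minus control difference in share was 0.903 points (p = 0.714 by the same permutation test). For the 2 arrays of slide 6 slide and dose cannot be told apart. The other 3 medium arrays shared slides 1, 2 and 3 with a control each. On these slides the control was always in position 1 and the medium dam in position 3, so within a slide position and dose cannot be told apart. The headers of the slide 6 arrays also name another build for the array design, mm8 in place of mm7. The comparison is therefore repeated below without slide 6, with values given where they differ most. Correlations between any 2 of the 10 arrays lay between 0.955 and 0.988. The tissue label was met by its markers: Sftpc, the surfactant protein made by alveolar type 2 cells, had log2 ratios of 4.32 to 5.26 in the medium lungs and 4.03 to 5.31 in the controls.

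At 54 µg 1 gene passed the test, Siglech, which was lower in the medium lungs than in the controls. Siglech encodes a surface receptor of the sialic acid binding lectin family that marks plasmacytoid dendritic cells in the mouse. Across 19914 genes, this is 0.00502% called by limma at a Benjamini-Hochberg adjusted p under 0.05. No gene was called higher. At an unadjusted p under 0.05 stood 1224 genes with higher means (6.15%) and 1130 with lower means (5.67%), together 11.8% of those tested. If no gene differed 996 would be expected, and genes that vary together let such a count stray further from that number. With slide 6 left out Siglech was again the gene called, and the unadjusted count was 1411 genes, 7.09%, made up of 3.43% higher and 3.65% lower. Without medium dam 46, Lama2, Shisa3 and Myl9 were also called lower and Rbm28 higher, and without control 4 Tlnrd1 was called higher. The share of genes whose 5 medium and 5 control values did not overlap was 2.78%, made up of 319 genes higher (1.6%) and 235 lower (1.18%). With the 3 medium arrays of slides 1 to 3 it was 6.5%, since fewer dams leave more room for groups not to overlap.

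The Siglech ratios of the controls were 0.86, 0.74, 0.71, 0.58 and 0.73. In the medium dams they were 0.18, 0.33, 0.26, 0.39 and 0.15. All 5 medium dams lay below all 5 controls, with a gap from 0.39 to 0.58 between the groups. The difference was -0.46 (SE 0.0571, 95% interval -0.58 to -0.34, adjusted p = 0.00247), a level 27.4% below the controls. Within slides 1, 2 and 3 the medium dam was lower than its control by log2 differences of -0.67, -0.41 and -0.46. With slide 6 left out the difference was -0.47 (adjusted p = 0.0156). With the slide as a fixed block it was -0.48 and the call ended (adjusted p = 0.157), and with the slide as a random block it held (-0.47, adjusted p = 0.00255). The call also ended from Cy5 alone (-0.47, adjusted p = 0.856), with the scanner software's own ratio (-1.34, adjusted p = 0.198), with the 10 arrays fitted alone (-0.46, adjusted p = 0.252), with the background parameters estimated over all spots (-0.46, adjusted p = 0.0992), with the scan day as a block (-0.48, adjusted p = 0.0798) and on slides 1 to 3 with the slide as a block (-0.51, adjusted p = 0.819). The low-dose dams lay between 0.31 and 0.47 and the high-dose dams between 0.33 and 0.47, so that no exposed dam of any group reached the lowest control. Against the same controls, the low-dose difference was -0.32 (adjusted p = 0.362) and the high-dose difference -0.31 (adjusted p = 0.0223). The comparisons share their control dams. The medium and high groups did not differ by the test, with a high minus medium difference of 0.15 (SE 0.0571, adjusted p = 0.413). The measurement rests on a single 60-base probe, well above background on all 10 arrays. The array design places it on chromosome 7 from 52015392 to 52015451 of the mouse build mm7, as named in the headers of the arrays of slides 1 to 5, and the files do not say in which part of the gene. In a whole lung, fewer cells of a type and less RNA per cell cannot be told apart.

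**Figure D1:**
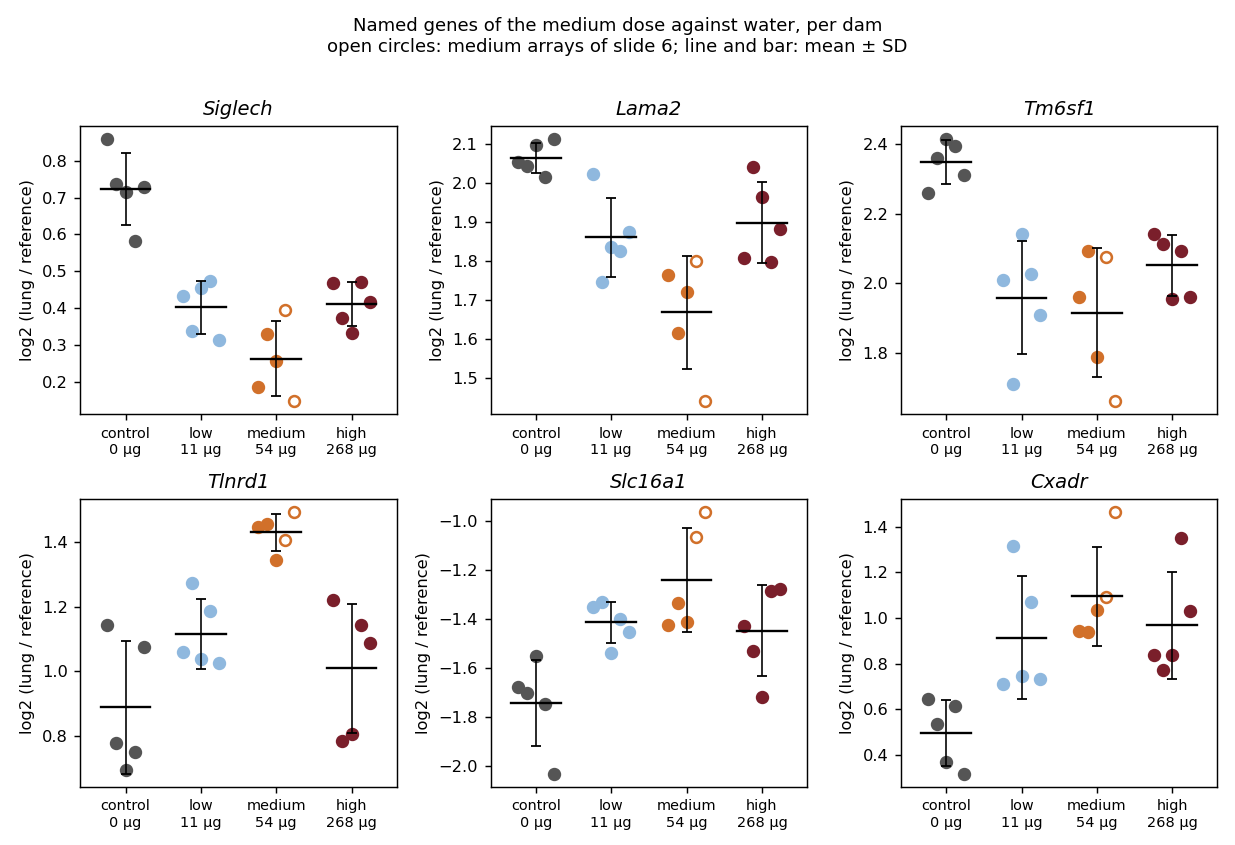
Log2 ratio of lung to reference RNA for 6 genes, 1 point per dam, by total dose, with the mean and SD of each group as a line and bar and the slide 6 arrays as open circles. For Siglech the controls sit between 0.58 and 0.86 and the medium dams between 0.15 and 0.39, with the low- and high-dose dams at 0.31 to 0.47. The other 5 genes separate medium from control dams without passing the test across all genes.

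No other gene of plasmacytoid dendritic cells passed the test. In a list of such genes that was added after the Siglech result was known, 20 members were measured, 14 with lower and 6 with higher medium means, and the median difference was -0.10 (-0.11 without slide 6) against 0.0017 over all genes. Siglech was the 1 member called. Pld4, an enzyme of these cells and of B cells, had values of 0.26 to 0.83 in controls and 0.00 to 0.28 in medium dams, which overlapped (difference -0.36, adjusted p = 0.297). Ccr9, a chemokine receptor of the same cells, differed by -0.22 (adjusted p = 0.386). Tcf4 and Irf8, transcription factors needed to form them and also active in other cells, differed by 0.05 each from the brightest probe, and by -0.15 from a further Irf8 probe and -0.09 and -0.07 from further Tcf4 probes. Bst2, a surface protein of these cells that interferon also induces elsewhere, had a positive difference of 0.28 (adjusted p = 0.323). In the wider list of dendritic cell and MHC class II genes, 16 of 29 had higher and 13 lower means, with a median of 0.05 and Siglech, also in this list, as the 1 call. That median was -0.04 with the arrays scaled to a like spread.

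Among the genes with the next smallest p-values in the downward direction, none passed. Lama2, the alpha 2 chain of laminin in the basement membrane around muscle, nerve and vessels, came closest. Its controls were tightly grouped at 2.05, 2.04, 2.10, 2.02 and 2.11, and its medium values were 1.77, 1.62, 1.72, 1.80 and 1.44. The groups did not overlap, and the difference was -0.40 (SE 0.067, adjusted p = 0.0951), with -0.38 from a second Lama2 probe. Its difference was -0.36 without slide 6 (adjusted p = 0.271). Tm6sf1, a membrane protein of phagocytes, had controls of 2.26 to 2.41 and medium dams of 1.66 to 2.09 (difference -0.43, adjusted p = 0.225). Agtr1a, the angiotensin II receptor through which vessels constrict, had controls of 3.00 to 3.45 and medium dams of 2.37 to 2.89, again without overlap. Its difference of -0.45 did not pass at the medium dose (adjusted p = 0.296), and the high-dose difference from the same controls was -0.51 (adjusted p = 0.0375). Shisa3, a modulator of Wnt and fibroblast growth factor receptors, differed by -0.65 (adjusted p = 0.296), and medium dam 46 at 1.45 lay among the controls of 1.16 to 1.74. Further names under the rule were Adamtsl3 (difference -0.34), Klrb1f (-0.36), A230057D06Rik (-0.29), Limd1 (-0.21) and Atp5c1 (-0.25), each with an adjusted p of 0.288 or 0.296. A second probe gave 0.12 for Adamtsl3 and -0.03 for Limd1.

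In the upward direction the smallest p belonged to Tlnrd1, a talin rod domain protein that binds actin. Its medium values of 1.45, 1.46, 1.35, 1.41 and 1.49 were all above the controls of 1.14, 0.78, 0.69, 0.75 and 1.08. The difference was 0.54 (SE 0.0945, adjusted p = 0.0951), but a second probe of the gene gave -0.09, so the probes disagree. Slc16a1, a transporter of lactate and other monocarboxylates, had controls from -2.03 to -1.55 and medium dams from -1.43 to -0.96. The 2 slide 6 dams held its highest values, and the difference was 0.50 with and 0.35 without them (adjusted p = 0.288 and 0.611). Cxadr, the coxsackievirus and adenovirus receptor of epithelial tight junctions, had controls of 0.32 to 0.64 and medium dams of 0.94 to 1.47, with a gap between the groups. Its difference was 0.60 (SE 0.131, adjusted p = 0.288) from the brightest probe, and 0.27 and 0.08 from 2 others. Folr1, a folate receptor, differed by 0.37, Ypel5 by 0.35, Rbm28 by 0.33, Ppp1r37 by 0.26, Cgnl1, a tight junction protein, by 0.23, and Ado by 0.20. None of these 6 passed (adjusted p = 0.288 or 0.296), and a second Ypel5 probe gave -0.01.

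Receptors of natural killer cells were mostly lower in the medium lungs, without a call. Of 27 measured genes of natural killer and cytotoxic cells, 23 had lower and 4 higher medium means, 10 of the lower ones at an unadjusted p under 0.05 where the share over all genes was 5.67%. The median difference of the list was -0.17, also without slide 6. Against the same controls it was -0.16 at the low dose and -0.33 at the high dose. At the high dose 3 of its genes were called, where the share over all genes was 0.326%. Within slides the list's medians were -0.15, 0.16 and -0.37, so the medium dam of slide 2 lay on the other side. The list mean of that dam, number 47, was 1.81, the other 4 medium dams lay at 1.33 to 1.46 and the controls at 1.51 to 1.79. Klrg1, an inhibitory receptor of mature natural killer cells, had controls at 1.03, 1.13, 1.01, 1.06 and 1.26. Its medium values of 0.85, 0.96, 0.80, 0.70 and 0.46 were all lower (difference -0.35, adjusted p = 0.296), and the difference was -0.23 without slide 6. For Klrb1a, which encodes a member of the NK1.1 receptor family, 4 medium dams at 1.41 to 1.62 lay below the controls of 1.79 to 2.17, and dam 47 lay among them at 1.99 (difference -0.40, adjusted p = 0.296). Klrd1, the CD94 subunit of inhibitory and activating receptors, differed by -0.41 (adjusted p = 0.299), and by 0.38 with the scanner software's own ratio. Ifng, the interferon that natural killer and T cells release, differed by -0.28 (adjusted p = 0.362), by -0.14 without slide 6 and by 0.06 with the scanner software's own ratio.

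**Figure D2:**
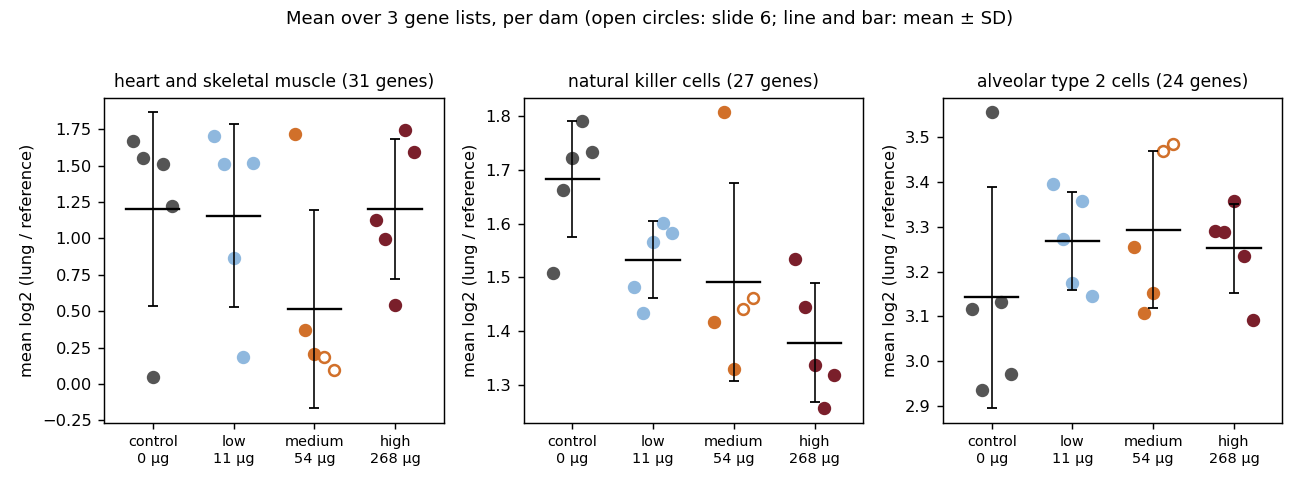
Mean log2 ratio over the measured genes of 3 lists, 1 point per dam, by total dose, with the mean and SD of each group and the slide 6 arrays as open circles. In the heart and skeletal muscle list 4 medium dams and control 14 sit at 0.37 or below while medium dam 46 and the other controls lie at 1.22 or above. In the natural killer list medium dam 47 lies above the other 4 medium dams.

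Neutrophil genes were not called in either direction at 54 µg. Of 21 measured neutrophil genes 17 had lower and 4 higher medium means, with a median of -0.26, or -0.17 without slide 6. Ngp, a granule protein of immature neutrophils, had controls at 0.80, 1.35, 2.46, 0.72 and 1.1 and medium dams at 0.28, 1.14, 0.11, 0.08 and 0.35. Control 14 was the highest dam and medium dam 47 the only one of its group among the controls (difference -0.89, SE 0.273, adjusted p = 0.311). Camp, the antimicrobial peptide cathelicidin of the same granules, differed by -0.82 (adjusted p = 0.348). On slide 3, which held control 14, Ngp and Camp were lower in the medium dam by -2.35 and -2.47, and on slides 1 and 2 the differences lay between -0.52 and 0.08. Medium dam 47 had the highest mean of its group over both the natural killer and the neutrophil list.

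Macrophage genes gave no call. Of 28 genes of macrophage and monocyte identity 15 had higher and 13 lower means (median 0.01), and of 40 genes of lipid- and particle-laden macrophages 24 had higher and 16 lower means (median 0.02). Without slide 6 the identity list had 7 higher and 21 lower means (median -0.08), and the laden macrophage list kept a median of 0.02. With the arrays scaled to a like spread the medians were -0.11 and -0.02. Siglecf, a lectin on eosinophils and alveolar macrophages, had controls of 2.48 to 3.08 and medium dams of 1.86 to 2.56, and differed by -0.39 (adjusted p = 0.373). Control 14 held the value of 3.08, and over the alternatives the medium difference lay between -0.89 and -0.0073. Against the same controls Siglecf differed by -0.50 at the low dose, without a call, and by -0.81 at the high dose (adjusted p = 0.0317). Itgam, the integrin of monocytes, neutrophils and natural killer cells, differed by -0.48 (adjusted p = 0.332), with 0.00 from a second probe, and Aif1, a cytoskeletal protein of macrophages, by 0.24 (adjusted p = 0.391). Abcg1, which exports cholesterol from alveolar macrophages, differed by 0.32 (adjusted p = 0.415), and by 0.17 without slide 6. Chil3, a chitinase-like protein of macrophages, differed by 0.46 with all arrays and 0.06 without slide 6.

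Between the high and the medium group, which share no dam, 19 genes passed the test, 0.0954% of those tested, and all 19 were higher at 268 µg. Without slide 6 no gene passed in that comparison, with 1135 genes at an unadjusted p under 0.05, a smallest adjusted p of 0.065 and 3 medium dams left. Leaving out single medium dams gave 29 genes without dam 46, 4 without dam 48 and 6 without dam 49 or dam 50. Cxcl5, an epithelial chemokine that attracts neutrophils, showed the widest gap. Its controls were -3.31, -3.00, -3.34, -3.63 and -3.26, its medium values -3.09, -3.20, -3.81, -3.53 and -3.36, and its high-dose values -1.56, 1.00, 1.07, -1.38 and -0.40. Its signal was well above background on 3 of the 5 medium arrays and on all 5 control arrays. Medium and control dams overlapped, and every high-dose dam lay above both. The medium minus control difference was -0.09 (SE 0.38, 95% interval -0.89 to 0.70), and the high minus medium difference was 3.14 (adjusted p = 0.00172, and 3.11 with an adjusted p of 0.065 without slide 6).

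Other genes that differed between 268 and 54 µg had medium minus control differences smaller than those between high and medium. Both comparisons use the same medium dams. For these genes, Cxcl5 and the plasma cell genes below, the medium minus control values are therefore not independent of how the genes were picked. Ly6f, a small surface protein of the Ly6 family, differed by 0.11 between medium and control (interval -0.36 to 0.58) and by 1.59 between high and medium (adjusted p = 0.00415). Trem2, through which macrophages sense lipids, differed by 0.12 (interval -0.16 to 0.40) and by 0.87 (adjusted p = 0.00996). Noxo1, an organiser of the epithelial NADPH oxidase, differed by -0.10 (interval -0.49 to 0.30) and by 1.24 (adjusted p = 0.00996). These 3 intervals at the medium dose lie below the size of the high minus medium difference. The neutrophil and epithelial protein Lcn2 differed by -0.15 and 1.29, the chemokines Ccl9 by -0.30 and 0.98 and Cxcl3 by -0.12 and 0.67, and the myeloid receptor Clec5a by 0.04 and 0.74, in the same order of comparisons. For Lcn2, Ccl9, Clec5a and Slc6a20a the lowest high-dose dam, number 60, lay among the medium or control dams. The transporter Slc6a20a differed by -0.16 and 0.85, the latter -0.09 with the scanner software's own ratio. Against the controls, the high-dose differences of Ccl9, Cxcl3 and Slc6a20a did not pass (adjusted p = 0.124, 0.0528 and 0.0697). Cxcl3 was above background on 2 of the 5 medium and 2 of the 5 control arrays, so its values in these groups are near background and both differences carry that limit.

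Plasma cell genes were among those higher at 268 than at 54 µg, with wide spread between dams. Jchain, the joining chain of secreted antibodies, had controls of -0.55, -2.18, -1.82, -2.43 and -2.32 and medium dams of -0.88, -1.83, -2.56, -2.70 and -1.96. In each group 1 dam, control 4 and medium 46, stood above the rest, and both were hybridised on slide 1. The high-dose dams were at -0.15, 0.57, 0.16, -1.02 and 0.03, and the lowest of them lay below control 4 and medium 46. The high minus medium difference was 1.90 (adjusted p = 0.0452), and the medium minus control difference -0.13 (interval -0.88 to 0.63). Tnfrsf17, a survival receptor of plasma cells, differed by 0.96 between high and medium (adjusted p = 0.0365) and by -0.16 between medium and control. The 2 kappa light chain segments among the 19 genes differed by 2.31 and 1.79 between high and medium. Between medium and control they differed by -0.59 and -0.41. Leaving out 1 dam moved these to between -0.76 and -0.35 and to between -0.50 and -0.10. Control 4, at 2.49 and 2.12, lay above the lowest high-dose dam of each segment, at 2.40 and 1.44. Such near-identical segments may share signal. Against the controls, the high-dose differences of Tnfrsf17 and the 2 segments did not pass (adjusted p = 0.0528, 0.0528 and 0.0665).

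**Figure D3:**
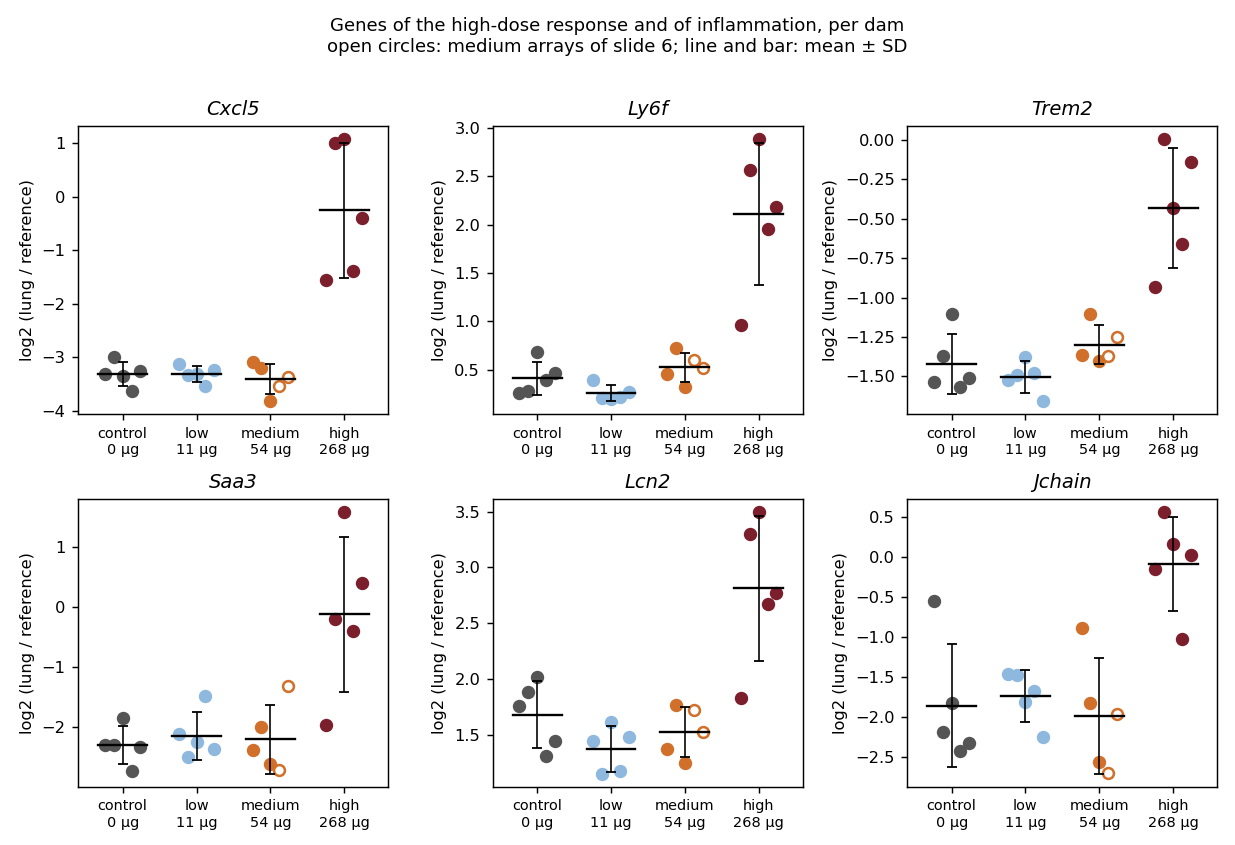
Log2 ratio of lung to reference RNA for 6 genes of chemotaxis, macrophages, acute phase response and plasma cells, 1 point per dam, by total dose, with the mean and SD of each group and the slide 6 arrays as open circles. The medium dams overlap the controls in all 6 panels, and for Saa3 medium dam 50 lies highest of its group at -1.31. For Cxcl5 the medium dams lie between -3.81 and -3.09 and the high-dose dams between -1.56 and 1.07.

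Inflammation lists gave no call at the medium dose. Of 26 acute phase genes 15 had higher and 11 lower means, none at an unadjusted p under 0.05, with a median of 0.04. Saa3, the serum amyloid A protein made by the lung itself, had controls between -2.73 and -1.84 and medium dams at -2.39, -2.01, -2.61, -2.72 and -1.31. Dam 50 alone lay above the controls, and the difference was 0.10 (SE 0.433, interval -0.81 to 1.00, adjusted p = 0.946). C3, the central complement component, differed by 0.27 (interval -0.03 to 0.58), and Hp, the haemoglobin-binding protein haptoglobin, by 0.20 (0.01 without slide 6). The medians were -0.12 over 7 neutrophil chemokines and their receptors, -0.02 over 14 CC chemokines and their receptors and -0.01 over 26 inflammatory cytokines and signalling genes. Ccl11, the eosinophil attractant eotaxin, had controls of 0.63 to 1.16 and medium dams of -0.13 to 0.69 (difference -0.52, adjusted p = 0.348). Il1b, the cytokine of the inflammasome, differed by -0.56 (adjusted p = 0.489), and Ccr2, the receptor that brings in monocytes, by -0.43 (adjusted p = 0.427). Ccl7 and the macrophage elastase Mmp12 differed by 0.12 and 0.07, with intervals of -0.40 to 0.65 and -0.35 to 0.50.

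Of 23 complement genes 17 had higher and 6 lower means, with a median of 0.05. C2, a protease of the classical pathway, had controls of 3.15, 3.00, 3.57, 2.93 and 2.9 and medium dams of 3.50, 3.23, 3.61, 3.86 and 3.90. The 2 slide 6 dams were highest, the groups overlapped through control 14, and the difference of 0.51 (adjusted p = 0.311) was 0.33 without slide 6. C4b, its partner in the same pathway, differed by 0.39 (adjusted p = 0.374), or 0.21 without slide 6, and Clu, an inhibitor of the terminal complex, by 0.17 (adjusted p = 0.382). Of 40 interferon-stimulated genes 29 had higher and 11 lower means (median 0.09, and 0.11 without slide 6). Irf1 and Psmb9 had differences of 0.22 and 0.21 (0.00 from a second Irf1 probe), whereas Mx1, an antiviral GTPase, had medium values of 0.09 to 0.48 below all controls at 0.52 to 0.93 (difference -0.36, adjusted p = 0.299).

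Genes that sense soot-borne hydrocarbons and oxidants gave no call. The 22 genes of the aryl hydrocarbon receptor and xenobiotic list had a median of -0.04, with 9 higher and 13 lower, and of -0.06 with 4 higher and 18 lower without slide 6. Cyp1a1, the classical target of that receptor, had controls of 1.16, 1.90, 1.04, 1.29 and 1.58 and medium dams of 0.91, 1.20, 0.78, 0.74 and 0.57. The difference was -0.55 (interval -0.94 to -0.17, adjusted p = 0.312), where the low-dose difference was 0.27 and the high-dose difference -0.45 against the same controls. Aox1, an aldehyde oxidase, differed by -0.32 and Arnt, the partner of the receptor, by 0.19 (adjusted p = 0.299 and 0.322), with further Arnt probes from -0.02 to 0.14. Of 41 antioxidant, NRF2 and metallothionein genes 18 had higher and 23 lower means (median -0.02). Keap1, the inhibitor of NRF2, differed by 0.18, G6pdx, which feeds NADPH to glutathione reduction, by -0.23, and Sod3, the extracellular superoxide dismutase, by -0.27. Of 36 genes of DNA damage and p53 targets 21 had higher and 15 lower means (median 0.01), or 17 and 19 without slide 6. Tnfrsf10b, a death receptor, differed by 0.14 (0.07 and -0.02 from further probes) and Aen, a nuclease, by 0.12. The 27 heat shock and unfolded protein genes had 21 higher and 6 lower means (median 0.09, and 0.17 without slide 6). Among them Pdia4, a folding enzyme of the endoplasmic reticulum, had all medium dams above all controls, dam 46 furthest at -0.04 and the others at -0.69 to -0.51, against controls of -1.11 to -0.71 (difference 0.35, adjusted p = 0.330).

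Genes of the extracellular matrix had lower means in the medium lungs for 30 of 40 measured collagens and matrix proteins, 8 of them at an unadjusted p under 0.05, where the share over all genes was 5.67%, and none called. The median was -0.16, -0.11 without slide 6 and -0.12, -0.25 and -0.19 within slides. Fn1, the adhesive matrix protein fibronectin, had controls of -1.86, -1.58, -1.87, -1.83 and -1.78 and medium dams of -2.29, -1.98, -1.88, -2.51 and -2.26. The groups touched without overlapping (difference -0.40, adjusted p = 0.343), and 2 further probes gave -0.19 and -0.23. Col18a1, a collagen of vascular basement membranes, had no overlap either (-0.35, adjusted p = 0.308). Bgn, the proteoglycan biglycan, differed by -0.41 (adjusted p = 0.341), and by 0.09 from a second probe. Col1a1 and Col3a1, the main fibrillar collagens, differed by -0.43 and -0.34 (adjusted p = 0.374 and 0.653). Further probes gave -0.25 and 0.07 for Col1a1 and -0.06 and -0.09 for Col3a1, and control 15 had the lowest Col3a1 value of its group at -1.65. Leaving out 1 dam moved the Col1a1 difference to between -0.59 and -0.31 and that of Col3a1 to between -0.63 and -0.21.

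In the list of fibroblast, smooth muscle and mesothelial genes 8 of 28 had higher and 20 lower means (median -0.09). Of its mesothelial genes, 5 are described here, all with higher means and singled out after their values were seen, and none was called. The mesothelial genes of the list were not tested as a set, so these 5 do not stand for them. Msln, a surface protein of the pleural lining, had controls of -0.64, -0.74, -0.26, -1.21 and -1.41 and medium dams of -0.33, -0.14, 0.17, 0.09 and 0.13. Only dam 46 lay among the controls, and the difference was 0.83 (SE 0.226, adjusted p = 0.296). Upk3b differed by 0.71, Wt1, a transcription factor of the mesothelium, by 0.62 with no overlap, Lrrn4 by 0.54 and Upk1b by 0.20 (adjusted p = 0.311, 0.368, 0.376 and 0.581). On slide 1, which held dam 46, the differences of Lrrn4, Upk3b and Upk1b were -0.56, -0.10 and -0.18, and on slide 2 they were 0.53, 0.54 and 0.28. Tagln, an actin-binding protein of smooth muscle, differed by -0.46 (adjusted p = 0.312), or -0.28 without slide 6, and dam 46 at 0.47 had the highest value of its group.

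Markers of heart and skeletal muscle differed widely between dams, and the mouse lung has heart muscle in the wall of its pulmonary veins. Of 31 measured genes 25 had lower and 6 higher medium means, none called, with a median of -0.69, or -0.35 without slide 6. Their mean log2 ratio was 1.67, 1.56, 0.05, 1.51 and 1.22 in the controls and 1.71, 0.37, 0.20, 0.19 and 0.09 in the medium dams. Control 14 was as low as the 4 low medium dams, and medium dam 46 was as high as the 4 high controls. The median within slides was 0.06 on slide 1, -1.32 on slide 2 and 0.15 on slide 3, which paired dams of like level on slides 1 and 3. Ckmt2, the mitochondrial creatine kinase of striated muscle, was 3.48, 3.24, 0.00, 3.18 and 2.55 in the controls and 3.17, 0.46, 0.17, 0.17 and -0.21 in the medium dams (difference -1.74, SE 0.75, adjusted p = 0.393). Myl3 and Actc1, proteins of the heart's contractile apparatus, differed by -1.29 and -0.96, with 0.00 from a second Myl3 probe. Low-dose and high-dose dams spanned 0.18 to 1.70 and 0.54 to 1.74 on the list mean. Adipose genes went the same way, with 15 of 17 lower, a median of -0.30 (-0.11 without slide 6) and dam 46 highest of its group at 2.66 against 0.80 to 1.19 in the other medium dams. The values of Shisa3, Myl9 and Tagln in dam 46 were also the highest, and that of Lrrn4 the lowest, of the medium dams. The part of muscle and fat markers in the values of these genes was not tested. Myl9, a myosin light chain of smooth muscle, was at 1.19 in dam 46, at 0.19 to 0.35 in the other medium dams and at 0.71 to 1.20 in the controls.

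**Figure D4:**
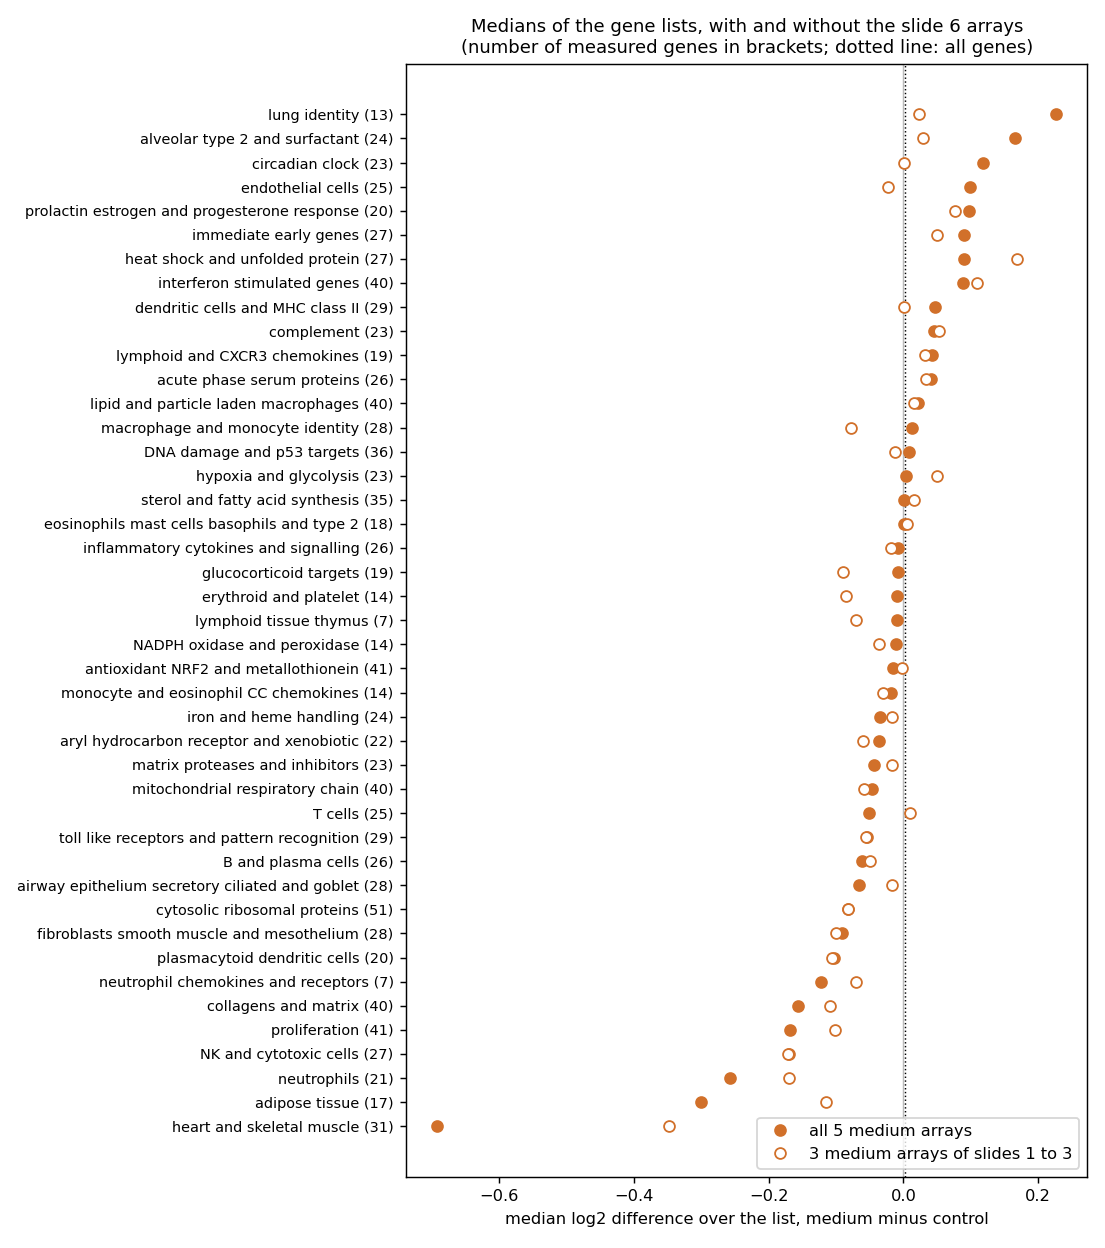
Median log2 difference, medium minus control, over each of the 43 gene lists, with all 5 medium arrays as filled circles and with the 3 medium arrays of slides 1 to 3 as open circles, and the median of all genes as a dotted line. The medians range from -0.69 for heart and skeletal muscle to 0.23 for lung identity. Those of lung identity and alveolar type 2 genes move to 0.02 and 0.03 without slide 6, while that of natural killer genes stays at -0.17.

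Alveolar type 2, lung identity and endothelial genes had positive medians that were near 0 without slide 6 and turned with the scaling. Of 24 alveolar type 2 and surfactant genes 21 had higher means (median 0.17), of 13 lung identity genes 10 (0.23) and of 25 endothelial genes 21 (0.10). Without slide 6 these medians were 0.03, 0.02 and -0.02, and with the arrays scaled to a like spread they were -0.03, -0.01 and -0.10. Pi4k2b and Lamp3, the type 2 cell genes with the smallest p, differed by 0.32 and 0.24 (adjusted p = 0.322 and 0.362), and Lamp3 by -0.03 with that scaling and from -0.10 to 0.12 by 3 further probes. Flt1, a receptor for vascular endothelial growth factor, differed by 0.30 with dam 50 apart at 4.32 and from -0.12 to 0.30 by 4 further probes, and Prox1, the factor that sets lymphatic identity, by -0.24 (adjusted p = 0.368 and 0.312), or 0.03 from Cy5 alone. Of 28 genes of the airway epithelium 11 had higher and 17 lower means, with a median of -0.07 (-0.02 without slide 6, -0.23 with the scaling and 0.10 with the scanner software's own ratio).

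Ribosomal protein genes had slightly lower means in the medium lungs, with none called. Of 51 measured 43 had lower and 8 higher medium means. At an unadjusted p under 0.05 stood 12 of the lower ones, where the share over all genes was 5.67%. In 7 the groups did not overlap, where 1.18% of all genes were lower without overlap. The median was -0.08 with and without slide 6, and it kept its sign under each of the 7 other ways of correcting and scaling the signals. Within slides 1, 2 and 3 it was -0.10, -0.04 and -0.0003, so it was near 0 on slide 3. The list mean of control 14, -0.55, lay within the medium range of -0.58 to -0.53. Rpl32 had controls of -0.79, -0.77, -0.83, -0.81 and -0.71 and medium dams of -1.06, -1.04, -0.98, -0.88 and -1.07 (difference -0.22, SE 0.0561, adjusted p = 0.296). Rps25 separated the dams too, with controls of -0.34 to -0.13 and medium dams of -0.49 to -0.35 (difference -0.17, adjusted p = 0.299), but a second probe gave 0.08. Rpl10 differed by -0.23 (adjusted p = 0.312). Genes of the mitochondrial respiratory chain had 29 lower and 11 higher means (median -0.05), with Atp5b, a subunit of ATP synthase that heart muscle holds in abundance, at -0.28, or -0.17 without slide 6. Its controls were 0.08 to 0.10 apart from control 14 at -0.18.

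Of 41 proliferation genes 38 had lower medium means, 7 at an unadjusted p under 0.05, where the share over all genes was 5.67%, and none called. The median was -0.17, -0.10 without slide 6 and -0.02 with the arrays scaled to a like spread, when 25 of the 41 were lower. Ccnb1, Ccnb2 and Cdc20, which drive cells through mitosis, differed by -0.36, -0.25 and -0.38 (adjusted p = 0.406 to 0.408). Immediate early genes had 20 of 27 higher (median 0.09). Ier3, a stress-induced survival gene, had medium dams of 0.02 to 0.30 above all controls at -0.31 to -0.07 (difference 0.32, adjusted p = 0.299), and Jund and Fosl2 of the AP-1 family differed by 0.30 and 0.22. Genes of the response to prolactin, estrogen and progesterone had 16 of 20 higher means (median 0.10). Prlr, the prolactin receptor, differed by 0.26 (adjusted p = 0.299), Stat5a, its signal carrier, by 0.19, and Igfbp5, a binding protein of insulin-like growth factors, by 0.42 with no overlap (adjusted p = 0.333 and 0.373).

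Between the medium and the low dose, 54 against 11 µg, limma called no gene in 19914 (656 at an unadjusted p under 0.05). Between the 2 medium arrays of slide 6 and the other 3 it also called none, with 1518 genes, 7.62%, at an unadjusted p under 0.05. Of the genes called between the high dose and the same controls, 65 in all or 0.326%, 38 were higher and 27 lower at 268 µg. Their median differences were 0.64 and -0.41 at the high dose and 0.12 and -0.22 at the medium dose, and as both comparisons use the same control dams these medians are not independent. Siglech was the one gene of the 65 that was also called at the medium dose.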

How the data were processed

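Lung RNA of 20 dams was measured on 2-colour Agilent mouse arrays. Median spot intensity per channel, with its local background, was deposited as scanner output, read per the file headers with Feature Extraction 9.5.1.1 and, for slide 6, 10.1.1.1, although the labels name 9.5.3.1. The files also hold the software's log10 ratio, and the authors deposited a table of log2 ratios whose levelling is not stated in the sources used here. Background was corrected with normexp (offset 50), its parameters estimated without the lowest spot of each channel, followed by loess within arrays (limma 3.58.1 in R 4.3.3). Control and outlier spots were left out. Probes well above background in Cy5 on at least 3 of 5 arrays of a group were kept, and the brightest probe stood for a gene, which gave 19914 genes, 15619 with a current symbol. lmFit and eBayes over all 20 arrays gave two-sided tests with Benjamini-Hochberg adjustment at 0.05. Named genes are those called, then the smallest p-values up to 10 per direction, then the 3 smallest of each list. Genes described for their high-dose values, further plasmacytoid and mesothelial markers, collagens, Sftpc, Kcns3 and Myl9 were chosen after their values were seen. The members, which the dose label defines, and the 43 lists were chosen with earlier results of these data known. The fit was tested on simulated data, drawn independently for each gene and without slide effects. That test therefore does not cover slides or genes that vary together. Alternatives changed the background, dye normalization, scaling, filter, probes, arrays, slide or scan day as a block and variance model. The number of arrays limits the precision.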

Additional observations from a re-analysis of the deposited data

Results flagged for a closer look

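In 256 groups of 5 values, the highest or lowest dam stood apart from the other 4 in 22, and chance gives about 1 in 20. Medium dam 46 was high for the heart and skeletal muscle list (mean 1.71 against 0.0944 to 0.367 in the other medium dams), adipose genes (2.66 against 0.804 to 1.19), Myl3 (0.843), Actc1 (2.10), Ckmt2 (3.17), Myl9 (1.19) and Pdia4 (-0.0429), and low for Lrrn4 (0.463). Among the controls, dam 14 was low for that muscle list (0.049 against 1.22 to 1.67), Ckmt2 (0.00349) and Atp5b (-0.181), and high for Flt3 (0.733) and Siglecf (3.08). Medium dam 47 was high for Ngp (1.14), natural killer genes (1.81) and neutrophil genes (1.97). Dam 48 was low for the plasmacytoid dendritic cell list (0.391 against 0.492 to 0.532) and dam 50 high for Flt1 (4.32 against 3.85 to 3.96). Control 15 was high for Agtr1a (3.45) and low for Cdc20 (-2.96) and Col3a1 (-1.65), and control 4 was high for a kappa light chain segment (2.12 against 0.515 to 0.661).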

How the results depend on the processing

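The count of genes called between medium and control was 1 as reported. It was 0 with normexp over all spots, with the software ratio, with Cy5 alone, with the 10 arrays alone, with the slide or the scan day as a fixed block and with slides 1 to 3 under a slide block. It was 5 with no background correction and 3 with scaling between arrays, all lower, Siglech and Tm6sf1 among them in both, with Kcns3 in both and Lama2 and Klrb1f in the former. Leaving out 1 dam at a time gave 1 to 5 genes. Without medium dam 46 these were Siglech, Lama2, Shisa3, Myl9 and Rbm28 and without control 4 Siglech and Tlnrd1. Siglech was lower under all 29 alternatives (differences -1.34 to -0.43, adjusted p 7.79e-05 to 0.856) and called in 22, among them all 10 that left out a dam (adjusted p 0.0012 to 0.0158). These alternatives are not independent, as the fits that left out a dam share most of their arrays. The changes of filter, outlier spots, probe averaging and variance model, and leaving out low-dose dam 27, kept its difference at -0.46. The count of 22 is therefore not a measure of how firm the call is. The count between high and medium was 19 as reported, 6 with normexp over all spots, 8 with the software ratio, 9 without low-dose dam 27, 5 with the slide as a fixed block, 3 with the scan day as a block and 0 without slide 6 or on slides 1 to 3 with the slide as a block. It was 4 without medium dam 48, 6 without dam 49 or 50, 16 without 47 and 29 without 46, so 4 to 29. Slc6a20a turned from a called 0.85 to -0.0886 between high and medium with the software ratio. The counts between medium and low, and between slide 6 and the other medium arrays, were 0 under each alternative run for them. The difference in probes above background turned from -2.39 to 0.903 points without slide 6, and lay between -3.78 and -0.817 when a dam was left out. Leaving out arrays also left fewer samples in the test, and some counts rose and others fell. Why a count moved was not tested. Of 116 genes examined under 29 alternatives, the sign of the medium minus control difference held under all for 98. Many of these genes were named for small p-values in this same comparison, so a held sign is no independent support. The share over all genes was not computed. No paired analysis was possible because no animal number occurs in both groups; dams that shared a slide were compared only through the slide blocks and the differences within slides.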

Other observations

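Some genes outside the comparisons above had wide values in single dams. Pdk4, a kinase that turns muscle and fat from glucose to fatty acid use and a target of glucocorticoids, had controls of 2.83, 1.32, 0.86, 1.48 and 1.52 and medium dams of 1.22, 0.81, 0.33, 0.82 and 0.23 (difference -0.92, SE 0.331, adjusted p = 0.333), with control 4 highest and control 14 lowest of its group. Cfd, the adipocyte protease adipsin, ranged from 2.89 to 4.99 in controls and from 0.81 to 5.52 in medium dams, with dam 46 highest. Slc11a1, a metal transporter of phagosomes, differed by -0.26 (adjusted p = 0.404), and Kcns3, a potassium channel subunit, by -0.35 with controls at 2.98 to 3.36 and medium dams at 2.55 to 2.99, which overlapped (adjusted p = 0.296). Ly6d and Flt3, which mark lymphoid and dendritic precursors, differed by 0.09 and -0.15.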
